A study of Rattus norvegicus with 10 samples.

Results

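The genes of glycolysis and of the cellular response to low oxygen were followed in pancreatic islets, the clusters of hormone-secreting cells in the pancreas, of male Wistar rats on 2 diets. The set was a list of 37 gene symbols, divided by role into 14 glycolytic enzymes, 4 PFKFB regulators, 7 genes of pyruvate and lactate handling and 12 genes of the hypoxia response. Of these, 36 were on the array with a probeset that carried 1 gene symbol, out of 14217 such genes in all, and each was read from its probeset of highest mean signal over the 10 arrays. The pyruvate kinase gene Pkm was left out, because its probeset also carried the symbol of another gene. Signals high enough to be tested were found for 30 members, of 10301 such genes. Hk2, Pfkfb3, Slc16a3, Adm and Car9 fell below the filter on dim probesets, and Gapdh was present only as control probesets, which were not part of the test.

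Rats aged 7 weeks were given standard chow, with 8% of calories from fat, or a cafeteria diet, with 66%, for 10 days, and 5 independent islet samples of each group were hybridised, 1 to an Affymetrix Rat Genome 230 2.0 array. All animals were males of 1 strain and were housed singly. Groups here follow the sample titles, and the separate diet entry of every sample names the other diet, so that under that entry each direction given below would be the opposite one. Values are linear MAS5 signals in arbitrary units, with a trimmed mean of 500.1 to 500.2 on every array. The labelled tissue was borne out by its hormone genes, since Ins1 and Ins2 both lay at percentile 99.8 of mean log2 signal. Islets were measured whole, so fewer cells of a type and less RNA per cell cannot be told apart.

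Glycolysis splits glucose into pyruvate in the cytosol. In beta cells most of that pyruvate enters the mitochondria, and the ATP made from it triggers insulin release. The PFKFB enzymes set the level of fructose 2,6-bisphosphate, the strongest activator of phosphofructokinase. Pyruvate dehydrogenase kinases inhibit pyruvate dehydrogenase, which turns pyruvate into acetyl-CoA inside the mitochondria. When oxygen is low, the prolyl hydroxylases no longer mark HIF-1α for destruction, and the factor switches on glycolytic enzymes, Vegfa and other targets through short DNA elements.

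The core of such an element is ACGTG or GCGTG. Both were searched on both strands in the 250 bases before each annotated start (the best of a gene's starts was counted), in RefSeq sequence of build GRCr8, for the 34 members with an entry. A core was present in 22 of them (64.7%), against 39.6% of all 27457 genes with an entry, and in 36.7% of all 33469 entries. The member shares by role were 9 of 13 glycolytic enzymes, 1 of 4 PFKFB regulators, 6 of 7 pyruvate and lactate genes and 6 of 10 hypoxia response genes. A palindromic CACGTG counts as 2 matches, 1 on each strand. These matches describe letters, not binding. Both cores contain the pair CG, and the comparison with all genes was not matched for base composition. The stretches below are shown for members whose signals are described further on, 5′ to 3′ on the gene's strand, with the cores in capitals. They come from chr5:166002834-166002866 (+) for Eno1, chr10:63715477-63715537 (+) for Aldoc, chr3:77113363-77113407 (+) for Pdk1, chr6:98359649-98359694 (+) for Hif1a, chr20:28437151-28437195 (-) for Ddit4, chr1:203155028-203155090 (-) for Bnip3 and chrX:62547401-62547500 (-) for Pdk3.
Eno1: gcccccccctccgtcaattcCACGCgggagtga
Aldoc: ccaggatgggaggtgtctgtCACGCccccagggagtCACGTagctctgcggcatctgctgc
Pdk1: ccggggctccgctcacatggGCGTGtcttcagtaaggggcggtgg
Hif1a: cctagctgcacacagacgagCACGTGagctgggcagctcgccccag
Ddit4: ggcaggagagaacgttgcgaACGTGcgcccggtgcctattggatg
Bnip3: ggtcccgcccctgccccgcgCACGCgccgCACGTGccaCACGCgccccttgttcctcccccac
Pdk3: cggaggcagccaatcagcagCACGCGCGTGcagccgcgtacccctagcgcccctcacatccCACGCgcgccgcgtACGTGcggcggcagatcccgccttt

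The Bnip3 stretch packs 4 cores between 108 and 90 bases before the start, and the Pdk3 stretch holds 4 between 109 and 54 bases. No core was found in this window for Hk2, Gpi, Tpi1, Pkm, Pfkfb1, Pfkfb2, Pfkfb4, Slc16a3, Vegfa, Egln3, Adm or Car9. That says only that these letters are not there.

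The comparison asks how 10 days of a fat-rich diet leave these genes in islets. No member passed the test. With limma, 0 of 18625 probesets had a Benjamini-Hochberg adjusted p under 0.05 (0%), so the threshold was met by no gene of any kind. Among the 30 tested members 18 had a higher and 12 a lower mean in the cafeteria group, with a median log2 difference of 0.045 against 0.0056 over all tested probesets. The share with a higher mean was 60% of members and 51.4% of all tested probesets. Leaving out 1 array moved 28 of the 30, all but Eno1 and Pfkfb4, by more than 1.5 times or turned them. Differences small beside their SE move that far easily, and the share among all tested probesets was not taken. The count therefore does not show that these genes lean on single arrays more than others do. With the GAPDH control ratio described below as a covariate, 21 of the 30 moved by more than 1.5 times or turned. Here too the share among all probesets was not taken. That ratio differed between the diets, so this model does not separate diet from RNA integrity. At an unadjusted p under 0.05, 2 members were higher, Pfkfb4 and Eno1 (6.67%, against 5.51% of all probesets), and 0 were lower, against 4.91%. Groups that did not overlap were seen in 0 members, while among all tested probesets the cafeteria arrays lay wholly above in 0.988% and wholly below in 1.45%. For 26 tested members the unadjusted 95% confidence interval of the brightest probeset lay within 0.5 of 0 on the log2 scale (1.41-fold). The exceptions were Aldoc, Pfkfb4, Pfkfb1 and Egln3, whose intervals reached from −0.65 (Aldoc) to 0.74 (Pfkfb4). These intervals do not bound other probesets of the same genes. Among the 26, second probesets of Ndrg1, Pdk2 and Vegfa differed by 0.42 (SE 0.183), 0.39 (SE 0.147) and 0.30 (SE 0.124).

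**Figure D1:**
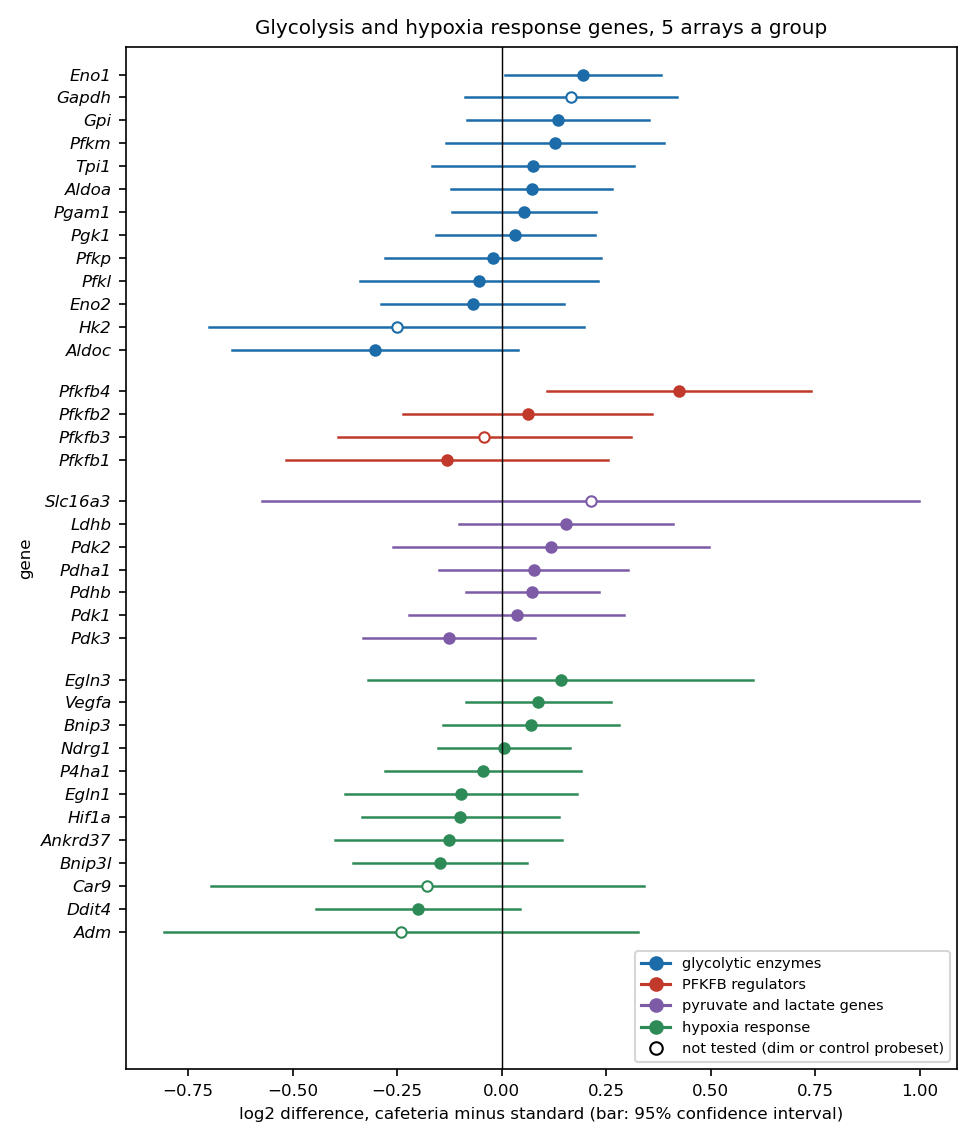
Log2 difference of each of the 36 measured members, cafeteria minus standard (point), with its 95% confidence interval (bar), ordered within the 4 roles. Filled points are the 30 tested members and open points the 6 that were not tested. The intervals of Eno1 and Pfkfb4 are the only ones among the tested members that do not cross 0, and neither passed adjustment.

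Glycolytic enzymes differed little between the diets. Of 11 tested, 7 had a higher and 4 a lower mean in the cafeteria group, with a median log2 difference of 0.054, and 0 passed the adjusted threshold. Steps of the pathway were not compared with each other, and Hk2, Gapdh and Pkm were not tested. At the enolase step the interval of Eno1 did not cross 0, but the gene did not pass adjustment.

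Eno1 encodes α-enolase, which makes phosphoenolpyruvate. Its signal was 5976, 7017, 6213, 6590 and 7273 in standard replicates 1 to 5 and 6845, 7839, 7375, 7415 and 8352 in the cafeteria replicates. All cafeteria arrays but replicate 1 lay above the highest standard array. The means were 6614 ± 540 (SD, n = 5) and 7565 ± 564 (SD, n = 5), a log2 difference of 0.19 (SE 0.085, limma adjusted p = 0.468). Eno2, the enolase of neurons and endocrine cells, differed by −0.070 (SE 0.099).

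Aldoc, an aldolase best known from brain, had the most negative difference of the tested members. Its signal was 174, 165, 181, 211 and 154 in the standard arrays and 160, 164, 87.0, 148 and 157 in the cafeteria arrays. Replicate 3 of the cafeteria group lay far below the other 9 arrays, which ran from 148 to 211. The log2 difference of −0.30 (SE 0.156, limma adjusted p = 0.512) shrank to −0.15 without that array. Aldoa, the main aldolase of muscle and most other tissues, differed by 0.072 (SE 0.088).

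Gapdh, the dehydrogenase that yields NADH, was represented by 3 control probesets, for the 5′, middle and 3′ parts of its transcript, and these gave unequal differences. The brightest, for the 3′ part, read 9289, 9750, 8598, 9961 and 10086 in the standard arrays and 9194, 11066, 9667, 10510 and 13414 in the cafeteria arrays. Its log2 difference was 0.16 (SE 0.114), and the groups overlapped (exact two-sided permutation p = 0.143, 0.143 adjusted over the 3 probesets). The 5′ probeset differed by 0.37 (SE 0.122), at 8273 ± 1130 (SD, n = 5) and 10664 ± 1158 (SD, n = 5) (exact permutation p = 0.0159, 0.0476 adjusted over the 3). The middle probeset lay between them at 0.20 (SE 0.107; exact permutation p = 0.0556, 0.0833 adjusted). A Gapdh difference read from this array therefore depends on the part of the transcript probed. The ratio of 3′ to 5′ signal, a measure of RNA integrity, averaged 1.16 in the standard and 1.01 in the cafeteria group (log2 difference −0.21, exact permutation p = 0.0238, 0.0476 adjusted over this and the β-actin ratio). For β-actin the same ratio did not pass (exact permutation p = 0.405). When that GAPDH ratio entered the model, Eno1 differed by 0.14 (SE 0.124, limma adjusted p = 0.709), against an SE of 0.085 without the ratio. The ratio differed by diet and was built from probesets of a member. Values with it in the model, here and below, therefore do not separate diet from RNA integrity.

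The remaining enzymes are given in pathway order. Hk2, the hexokinase of muscle and fat that healthy beta cells keep low, averaged 40.1 ± 12.1 (SD, n = 5) in the standard and 31.6 ± 10.6 (SD, n = 5) in the cafeteria arrays, at percentile 19.8 of all probesets and below the filter. Gpi, which turns glucose 6-phosphate into fructose 6-phosphate, differed by 0.13 (SE 0.099), and without cafeteria replicate 5 by 0.065. The phosphofructokinase subunits Pfkm, Pfkl and Pfkp, named for muscle, liver and platelet, differed by 0.13 (SE 0.118), −0.054 (SE 0.129) and −0.020 (SE 0.117), and Pfkm by 0.041 without standard replicate 1. Tpi1, triose phosphate isomerase, differed by 0.075 (SE 0.110), and by 0.0063 to 0.13 with 1 array left out. Pgk1, phosphoglycerate kinase, differed by 0.032 (SE 0.086), and Pgam1, phosphoglycerate mutase, by 0.054 (SE 0.078). Of these genes Pgam1 was measured most tightly, at 10958 ± 621 (SD, n = 5) and 11385 ± 822 (SD, n = 5).

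**Figure D2:**
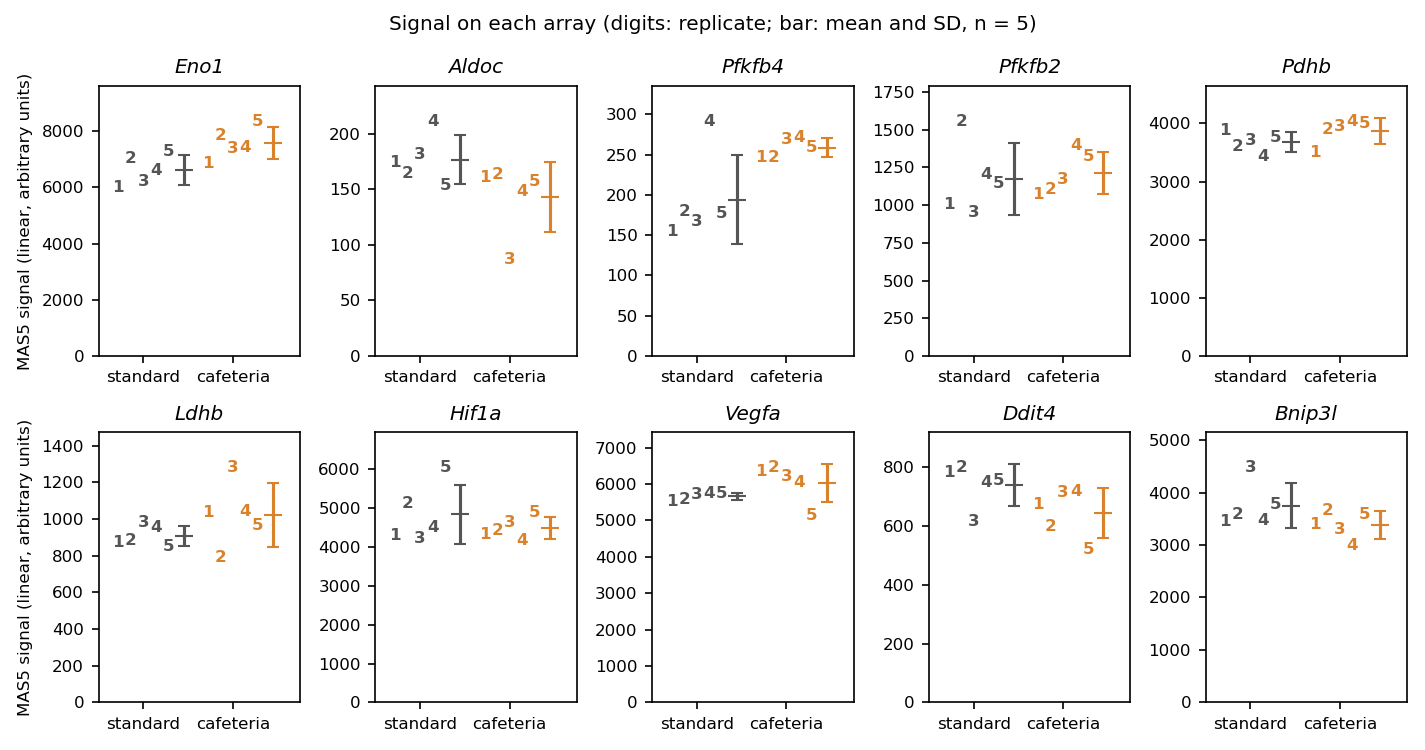
Linear MAS5 signal of 10 members on every array, with digits for the replicate number and a bar for the mean and SD of each group (n = 5). The 5 cafeteria arrays of Pfkfb4 sit between 246 and 271, above all standard arrays but replicate 4, and 4 of 5 cafeteria arrays of Vegfa sit above all standard arrays while replicate 5 sits below them.

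Among the PFKFB regulators, Pfkfb4 had the lowest p of all members. The enzyme makes and breaks down fructose 2,6-bisphosphate, and its gene is a known HIF target. Its signal was 155, 180, 166, 291 and 177 in the standard arrays and 246, 247, 269, 271 and 259 in the cafeteria arrays. The cafeteria arrays were close together and above 4 of the 5 standard arrays, and standard replicate 4 was the highest array of all. The means were 194 ± 55.4 (SD, n = 5) and 258 ± 11.7 (SD, n = 5). The log2 difference was 0.42 (SE 0.144, 95% confidence interval 0.11 to 0.74), 1.34-fold on the scale of signal + 14.15, which did not pass (limma adjusted p = 0.412). Without standard replicate 4 it was 0.57 (SE 0.080), which did not pass either (limma adjusted p = 0.310), and over the other arrays left out in turn it was at least 0.36.

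Pfkfb2, the form known from heart and islets, and Pfkfb1, the liver form, gave no such separation. Pfkfb2 read 1002, 1557, 951, 1206 and 1146 in the standard and 1072, 1106, 1167, 1396 and 1324 in the cafeteria arrays, a log2 difference of 0.063 (SE 0.135, limma adjusted p = 0.885). The whole cafeteria range lay inside the standard range, whose top was replicate 2. Pfkfb1 read 149, 131, 152, 119 and 148, then 134, 155, 165, 73.0 and 124, a log2 difference of −0.13 (SE 0.175, limma adjusted p = 0.804) that was 0.041 without cafeteria replicate 4. Pfkfb3, the inducible form of many proliferating cells, was dim at 48.4 to 98.5 and 67.2 to 82.8, below the filter.

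Of the genes that decide the fate of pyruvate, 6 were tested, 5 with a higher and 1 with a lower mean in the cafeteria group. Their median log2 difference was 0.074, and it was 0.017 without cafeteria replicate 5. No member of the group passed the test.

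Pdk3, a pyruvate dehydrogenase kinase, was the one with the lower mean. Its signal was 704, 681, 679, 615 and 738 in the standard and 549, 558, 642, 675 and 713 in the cafeteria arrays. Cafeteria replicates 1 and 2 lay below every standard array, and the rest overlapped with them (log2 difference −0.13, SE 0.093, limma adjusted p = 0.638). Pdk1, the kinase most often described as a HIF target, differed by 0.036 (SE 0.117) and Pdk2, the most widespread kinase, by 0.12 (SE 0.172), which was 0.0077 without cafeteria replicate 5, 0.23 without standard replicate 5 and 0.38 with the GAPDH ratio in the model.

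Pdha1 and Pdhb encode the α and β subunits of the first enzyme of the pyruvate dehydrogenase complex. Pdhb read 3886, 3607, 3700, 3435 and 3763 in the standard and 3494, 3887, 3941, 4038 and 3994 in the cafeteria arrays. Cafeteria replicates 2 to 5 lay above the highest standard array, replicate 2 only just, while cafeteria replicate 1 lay near the bottom (log2 difference 0.073, SE 0.072, limma adjusted p = 0.729). Pdha1 read 3201, 3296, 2562, 3232 and 3271, then 3153, 2873, 3114, 3471 and 3806. Its log2 difference of 0.076 (SE 0.102, limma adjusted p = 0.804) was 0.0080 without standard replicate 3, the lowest array.

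Ldhb, the lactate dehydrogenase subunit of heart, read 870, 881, 983, 954 and 853 in the standard and 1034, 788, 1280, 1040 and 967 in the cafeteria arrays. In the cafeteria group it held the highest and the lowest array of the 10 (log2 difference 0.15, SE 0.116, limma adjusted p = 0.644). The difference was 0.069 without cafeteria replicate 3 and 0.24 without cafeteria replicate 2. Slc16a3 encodes MCT4, a lactate exporter that is low in normal beta cells. It read 109, 26.2, 98.2, 97.2 and 129 in the standard and 65.7, 85.9, 77.6, 124 and 171 in the cafeteria arrays, which put it just below the filter at percentile 39.1. Its difference of 0.21 (SE 0.354) became −0.11 without standard replicate 2, and 1.09 (SE 0.351) with the GAPDH ratio in the model, where as a dim gene it has no adjusted p.

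The hypoxia response genes showed no shared shift. Of 10 tested, 4 had a higher and 6 a lower mean in the cafeteria group, with a median log2 difference of −0.071. That median was −0.0089 without standard replicate 5 and −0.0059 without cafeteria replicate 3. Again 0 members passed, and 0 had an unadjusted p under 0.05 in limma.

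Hif1a encodes the oxygen-regulated subunit of HIF-1, which is controlled mainly through the stability of the protein, so its mRNA is no readout of HIF activity. The signal was 4296, 5116, 4226, 4511 and 6038 in the standard and 4307, 4420, 4631, 4171 and 4886 in the cafeteria arrays. Standard replicate 5 was the highest, and without it the log2 difference of −0.098 (SE 0.107, limma adjusted p = 0.752) was −0.015. Of the prolyl hydroxylases that mark HIF-1α, Egln1 differed by −0.097 (SE 0.126) and Egln3, itself a HIF target, by 0.14 (SE 0.209). Without standard replicate 5 Egln1 differed by −0.025. With 1 array left out Egln3 ran from 0.034 to 0.27, and it was 0.39 with the GAPDH ratio in the model.

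Vegfa, the endothelial growth factor that islet cells secrete, was very even in the standard group, at 5526, 5581, 5721, 5728 and 5734. The cafeteria arrays read 6342, 6447, 6197, 6043 and 5135. Cafeteria replicates 1 to 4 were thus above every standard array and replicate 5 below every one. The log2 difference of 0.088 (SE 0.079, limma adjusted p = 0.696) was 0.14 (SE 0.063) without replicate 5, which did not pass either (limma adjusted p = 0.547). With the GAPDH ratio in the model it was 0.0084.

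Ddit4, a stress-induced inhibitor of mTORC1, read 782, 798, 614, 748 and 754 in the standard and 672, 597, 713, 719 and 518 in the cafeteria arrays. Standard replicate 3 lay below 3 of the cafeteria arrays, and the other standard arrays lay above all 5. The log2 difference was −0.20 (SE 0.111, limma adjusted p = 0.529). It was −0.26 without standard replicate 3, −0.13 without cafeteria replicate 5, and −0.40 (SE 0.141, limma adjusted p = 0.430) with the GAPDH ratio in the model.

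Bnip3 and Bnip3l encode mitochondrial proteins that target mitochondria for autophagy. Bnip3l read 3445, 3583, 4474, 3469 and 3779 in the standard and 3383, 3649, 3288, 2985 and 3584 in the cafeteria arrays. Cafeteria replicates 1, 3 and 4 lay below every standard array, and standard replicate 3 lay far above the rest (log2 difference −0.15, SE 0.095, limma adjusted p = 0.581). Without standard replicate 3 the difference was −0.082. Its relative Bnip3 had the other sign, at 0.069 (SE 0.096), with 4263 ± 369 (SD, n = 5) and 4479 ± 468 (SD, n = 5).

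The other hypoxia targets had small differences or dim signals. Ndrg1, a stress-responsive gene, read 11921 ± 571 (SD, n = 5) and 11975 ± 661 (SD, n = 5), a log2 difference of 0.0061 (SE 0.072) and the smallest SE of the tested members. Its second, dimmer probeset differed by 0.42, as given with the other second probesets, and the mean of both by 0.22 (SE 0.117). P4ha1, a subunit of the collagen prolyl hydroxylase, differed by −0.045 (SE 0.107). Ankrd37, a small ankyrin repeat protein and HIF target, differed by −0.13 (SE 0.123), which was −0.039 without cafeteria replicate 2 and −0.20 without cafeteria replicate 3. Adm, the vasodilator peptide adrenomedullin, and Car9, the carbonic anhydrase often used as a marker of hypoxia, stayed below the filter, at percentiles 32.2 and 37.4 of mean log2 signal.

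Across arrays, the mean of the glycolytic enzymes had an SD within each diet that was larger than the difference between the group means. For each array the mean deviation of the 11 tested enzymes from their own 10-array means was taken. It ran from −0.11 to 0.091 (SD 0.081, n = 5) in the standard and from −0.14 to 0.15 (SD 0.115, n = 5) in the cafeteria group. The group means were 0.022 apart. By replicate number 1 to 5 the values were −0.077, 0.022, −0.11, 0.018 and 0.091 in the standard arrays. In the cafeteria arrays they were −0.074, 0.058, −0.14, 0.056 and 0.15. Both groups thus ranked their arrays in the same order of number. The SD within a diet therefore includes spread that goes with the number. The labels give no pairing, and the cause of this shared order was not tested. Standard replicate 5 and cafeteria replicates 4 and 5 had 9, 10 and 9 of the 11 enzymes above their own means. Standard replicates 1 and 3 and cafeteria replicates 1 and 3 had 2 each. The same kind of mean for the hypoxia genes ran from −0.048 to 0.13 and from −0.087 to 0.0075, with group means that differed by −0.041. Of all 30 tested members, 14 were highest in standard replicate 5 among the standard arrays, and 14 were highest in cafeteria replicate 5 among the cafeteria arrays. The share among all tested probesets was not taken, so these counts are not shown to be particular to these genes. Without cafeteria replicate 5, 17 tested members had a higher and 13 a lower cafeteria mean, and the median of the glycolytic enzymes was 0.0063. Without standard replicate 5 the counts were 19 and 11, and that median was 0.077.

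**Figure D3:**
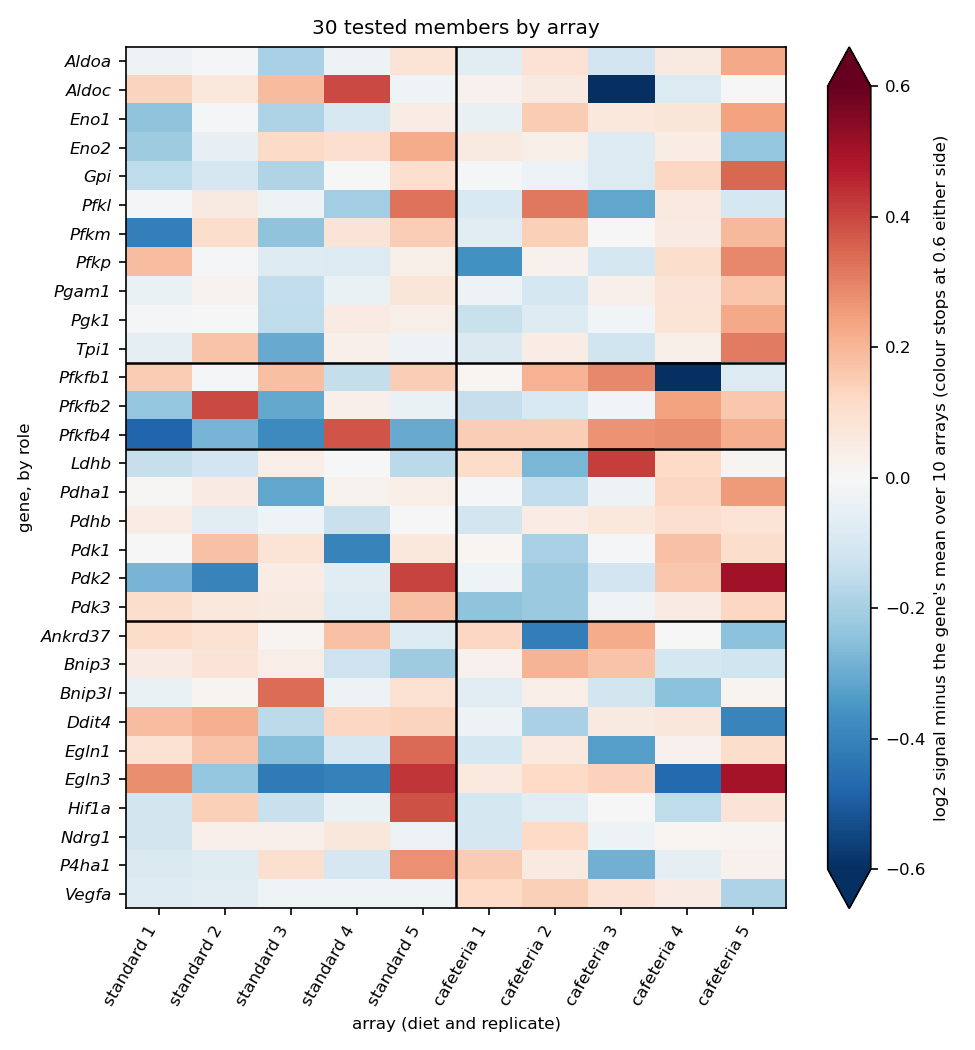
Log2 signal of each of the 30 tested members minus that gene's mean over the 10 arrays, by array (columns, standard left and cafeteria right of the line) and by role (blocks of rows from the top: glycolytic enzymes, PFKFB regulators, pyruvate and lactate genes, hypoxia response). Red is above and blue below the gene's mean. Single arrays such as standard 3, standard 5 and cafeteria 5 stand out across many of these genes, whereas no block of rows changes colour at the line. Whether the same arrays stand out in other genes was not examined.

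Several members have more than 1 probeset, and the brightest was not always the one that differed most. The members had 41 tested probesets in all, of which 5 were higher at an unadjusted p under 0.05 in limma (12.2%, against 5.51% of all tested probesets) and 0 lower (against 4.91%), and 0 passed adjustment. Besides those of Eno1 and Pfkfb4 they were second probesets of Pdk2, Ndrg1 and Vegfa. For Pdk2 the second probeset read 179, 246, 192, 221 and 194 in the standard and 215, 391.8, 261, 283 and 246 in the cafeteria arrays (log2 difference 0.39, SE 0.147, limma adjusted p = 0.425). Only cafeteria replicate 1 fell well inside the standard range. For Ndrg1 it differed by 0.42 (SE 0.183, limma adjusted p = 0.461), against 0.0061 from the brightest. For Vegfa it differed by 0.30 (SE 0.124, limma adjusted p = 0.445), and its cafeteria arrays ran from 1377 to 1872 against 991 to 1562. Of 10 members with at least 2 tested probesets, 7 had all of them in 1 direction, and Pdk1, Pdk3 and Pfkfb2 did not. Which transcripts each probeset reads was not examined here.

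**Figure D4:**
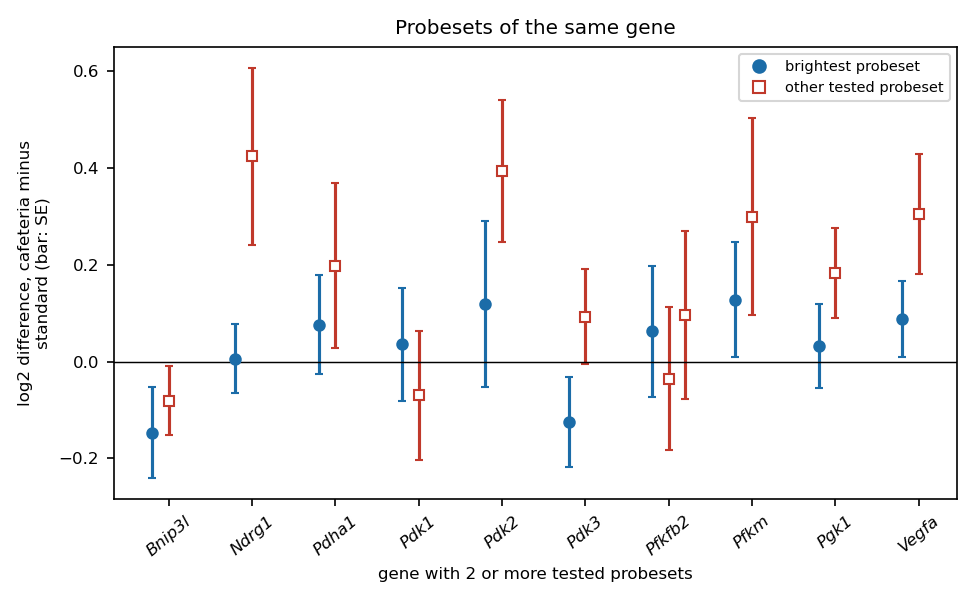
Log2 difference, cafeteria minus standard, with its SE (bar), for every tested probeset of the 10 members that have 2 or more. Circles are the brightest probesets, which were used for all member counts, and squares the others. The squares of Ndrg1, Pdk2 and Vegfa lie at 0.42, 0.39 and 0.30, above their circles at 0.0061, 0.12 and 0.088.

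Genes of the same pathways outside the list gave no call either. Of 51 on the array, 40 were tested, 19 with a higher and 21 with a lower mean in the cafeteria group, with a median of −0.0035 and 0 past the adjusted threshold. For glycolysis, glucose and pyruvate genes the split was 11 higher and 4 lower (73.3% higher), with a median of 0.072. For hypoxia genes it was 8 higher and 17 lower (32% higher), with a median of −0.058. Among all tested probesets 51.4% were higher, with a median of 0.0056. Higher with the lowest p were Pklr, the pyruvate kinase of liver and red cells, at 0.20 (SE 0.087, limma adjusted p = 0.468), and P4hb, an endoplasmic reticulum protein shared with collagen hydroxylation, at 0.19 (SE 0.101, limma adjusted p = 0.522). Cafeteria replicate 5 held the top P4hb value of 25610, and the other 4 cafeteria arrays, at 18016 to 18947, were just above the standard arrays at 16749 to 17972. Lower with the lowest p were Stc2, which encodes the secreted protein stanniocalcin 2, and Cited2, a competitor of HIF for its coactivator. Stc2 was just below the filter at percentile 37.0, so it has no adjusted p. It read 98.0, 98.2, 87.1, 122 and 115 in the standard and 70.03, 69.4, 80.7, 75.3 and 36.7 in the cafeteria arrays. Those groups did not overlap (log2 difference −0.58, SE 0.172). Cited2 differed by −0.40 (SE 0.184, limma adjusted p = 0.480), with standard replicate 4 the highest array at 1701. Mpc1, a subunit of the carrier that brings pyruvate into mitochondria, was picked after its values were seen: its cafeteria arrays, 2307 to 2689, lay wholly below the standard arrays, 2774 to 3003 (log2 difference −0.14, SE 0.071, limma adjusted p = 0.506). Of the 40 tested genes, only P4hb had its cafeteria arrays wholly above (2.5%, against 0.988% of all tested probesets). Only Mpc1 had them wholly below (2.5%, against 1.45%). Stc2 was not among the 40.

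Markers of other cells in the islet preparations overlapped in their summed signal between the diets in all 7 lists examined. All 10 of 10 immune markers had a lower mean in the cafeteria group, with a median log2 difference of −0.77. Their summed signal was 17297, 4419, 13313, 9297 and 18799 in the standard and 4382, 5243, 19881, 5633 and 6755 in the cafeteria arrays. Standard replicate 2 was low and cafeteria replicate 3 high, and the other arrays were separated by diet. Of 10 acinar markers 8 were lower, with sums of 8864 to 21082 and 4080 to 21274. The 7 endothelial markers on the array, of cells that respond to Vegfa, split into 4 higher and 3 lower, with sums of 11676 to 14212 and 11127 to 13630. The 7 endocrine markers on the array all had a higher mean in the cafeteria group, with sums of 137340 to 179880 and 170230 to 220670. The part of these markers in the values of the glycolysis and hypoxia genes was not tested.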

How the data were processed

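RNA of 10 islet samples was measured on 1-colour Affymetrix arrays. The deposited values are linear intensity values; per the submitters' processing notes they were made with MAS5, whose version is not given in the sources used here. The table holds 31099 probesets, 57 of them controls, and no detection calls.

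Signals were taken as log2(value + 14.15), the 10th percentile of all values, so fold changes of dim genes are understated. Non-control probesets above the 40th percentile of mean log2 signal (18625) were tested with limma 3.58.1 in R 4.3.3 (lmFit, eBayes; 8 residual and 3.11 prior degrees of freedom) and Benjamini-Hochberg adjustment over all of them, with a threshold of 0.05. Values of members not tested come from the same fit without the filter and have no adjusted p. Control-probeset values were compared by exact two-sided permutation over 252 divisions of the arrays. The fit was tested on simulated data. Their number, 5 arrays a group, limits the precision, and replicates are separate samples per the labels.

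Gene symbols come from the platform annotation; the symbols of all 36 members matched those of RefSeq (GRCr8) for the same gene ID. Bnip3l, Ndrg1 and Pgk1 had no promoter entry. Members and lists were chosen with earlier results of these data known. Every member is named; values on each array are given for the 3 members of lowest p in each role, for Hif1a and for members with an array far from the rest of its group. Of other pathway genes, the 2 of lowest p in each direction are named.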

Additional observations from a re-analysis of the deposited data

Results flagged for a closer look

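In 7 of 72 sets of 5 arrays (36 members in each group), 1 array stood apart from its group by Dixon's test, where chance marks about 1 set in 20, or 3.6 sets. Values are log2(signal + 14.15). The lowest arrays of the standard group were replicate 3 for Pdha1 at 11.33 (others 11.65 to 11.69) and for Ddit4 at 9.30 (others 9.57 to 9.67), and replicate 2 for the dim Slc16a3 at 5.34 (others 6.80 to 7.17). Standard replicate 4 was the highest for Pfkfb4 at 8.26, a signal of 291 (signals of the others 155 to 180). In the cafeteria group the lowest arrays were replicate 3 for Aldoc at 6.66 (others 7.34 to 7.47), replicate 1 for Pdhb at 11.78 (others 11.93 to 11.98) and replicate 5 for Vegfa at 12.33 (others 12.57 to 12.66). Standard replicate 3 was thus marked for 2 genes and each other array named here for 1.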

How the results depend on the processing

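No member passed under any of the 22 alternatives, which included other pseudocounts, filters, normalizations and variance models, array weights, the GAPDH ratio as a covariate, other rules for choosing probesets, and the omission of single arrays. Not every member was tested in each. The filter at the 70th percentile kept 25 members and dropped Pfkfb4, Aldoc, Pfkfb1, Pdk2 and Egln3, which could not pass there. Probesets past the threshold numbered 0 wherever they were counted (not for averaged probesets), except 1 (of Emp1) without standard replicate 2, so 0 to 1 with 1 array left out. With the replicate number as a block the count was 0 as well, and the block changed no call. It did change SEs in both directions. With the block the SE of Pdk2 went from 0.172 to 0.090 and that of Egln3 from 0.209 to 0.127. Those of Eno2 and Pdk1 rose, from 0.099 to 0.115 and from 0.117 to 0.135. Deviations of same-numbered arrays correlated at −0.0017 to 0.30, and as not every pair was above 0.1 the numbers were not taken as pairs, although 5 of 10 arrays correlated best with their own number, a hint from the data and not the design. The PFKFB median of 0.063 was 0.24 without probesets named _x_at, _s_at or _a_at, which leaves 2 genes, Pfkfb4 and Pfkfb2. With averaged probesets it was −0.015, also from 2 genes, Pfkfb1 at −0.13 and Pfkfb2 at 0.10. Pfkfb4 was not among those. The median was −0.041 with the GAPDH ratio as a covariate and −0.0061 without standard replicate 3. The hypoxia median ran from −0.087 to −0.0059 with 1 array left out. Of 784 values for single members, 748 kept their direction and 36 turned, none of them a call. With quantile normalization Ndrg1 turned to −0.046. Median centring lowers all genes alike (the median of all tested probesets goes from 0.0056 to −0.032), which alone put Pgk1 at −0.0051, Pdk1 at −0.0018 and Ndrg1 at −0.031, with 15 members higher and 15 lower. With array weights Pfkl was 0.010. With the GAPDH ratio as a covariate Pfkm was −0.035, Pfkp 0.086, Pfkfb2 −0.20, Pfkfb3 0.28, Pdk1 −0.0072, Car9 0.18, P4ha1 0.016 and Ndrg1 −0.033. With all probesets of each gene averaged, Pfkfb3 was 0.12 and Pdk1 −0.017. With 1 array left out, Pfkp ran from −0.095 to 0.068, Pfkfb3 from −0.18 to 0.027, Ndrg1 from −0.023 to 0.032, Slc16a3 from −0.11 to 0.35, Pgk1 from −0.021 to 0.070, Pfkfb2 from −0.0061 to 0.17, Pdk1 from −0.060 to 0.089, Pfkl from −0.14 to 0.020, P4ha1 from −0.089 to 0.022, Car9 from −0.33 to 0.026 and Pfkfb1 from −0.22 to 0.041. The cause of these turns was not tested. Without detection calls it is unknown whether the dimmest members lie above background.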
